A study of Mus musculus with 2 samples.

Results

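Schwann cells are the glia of peripheral nerve, and in the cochlea they ensheath the processes of spiral ganglion neurons. The genes described are 7 that mark this lineage, read by symbol from the 31053 genes of the count tables. Mbp (myelin basic protein) and Pmp22 (peripheral myelin protein) are structural parts of compact myelin, and Egr2 (also called Krox20) is the transcription factor that drives the myelin genes. Ngfr is the low-affinity neurotrophin receptor p75, which immature and injured Schwann cells carry. Erbb3 is the receptor that binds axonal neuregulin, Sox10 is the transcription factor required throughout the lineage, and Foxd3 is a neural crest factor of its precursors. A Schwann cell that loses its axon lowers its myelin genes and takes on an immature or repair state, so the 2 groups of genes are usually read against each other. Sox10 is also known from cochlear epithelium, and Egr2 from many cells as a gene induced within minutes of a stimulus.

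Sensory epithelium was dissected from cultured whole cochleae of wild-type C57BL/6J mice aged 4 to 6 weeks and profiled by droplet sequencing of 3' ends with molecular identifiers (UMIs). The cocktail group received VPA at 1.5 mM, LiCl at 8 mM, FSK at 20 µM, siFIR at 0.02 µM and siMxi1 at 0.02 µM for 4 days, and then carried ad.Atoh1, a vector that overexpresses Atoh1, for 2 weeks. The vehicle group received water with 0.1% DMSO in place of these 5 agents and then the same ad.Atoh1 period. Each group is 1 library pooled from 5 cultures (n = 5 by the labels), so no value measures the spread between cultures. No test of the condition was possible, no p-value was computed, and every interval is a 95% interval that covers counting error alone.

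The labels state about 1400 cocktail and 1700 vehicle cells, and the tables hold 1403 and 1688 barcodes. Barcodes needed 500 UMIs, 300 genes and no more than 20% mitochondrial UMIs, which 1329 cocktail and 1584 vehicle cells met, with medians of 10391 and 12267 UMIs, and the libraries shared 0 barcodes. Levels are UMIs per 1000000 UMIs (CPM), and the limit that a count of 0 allows, taken as 3 counts, was 0.154 CPM in cocktail and 0.130 CPM in vehicle cells. Cells were placed in gates by genes other than the 7. The glia gate asked for at least 2 of 8 glial genes, among them Cdh19, Fabp7, Scn7a, Kcna1, Art3 and Gpr37l1, together at 5 or more per 10000 UMIs. Some of the 8 are themselves myelin genes, so the gate partly selects cells for myelin RNA. It held 42 cocktail cells, 3.16% (2.29 to 4.25) of the library, and 161 vehicle cells, 10.2% (8.72 to 11.8). The median depth of these cells was 7369.5 and 7603 UMIs. The oligodendrocyte gate held 0 cells in both libraries, and Mog, Ermn, Hapln2 and Olig2, genes of the central myelin-forming cell, were at 0 in the glia gate.

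In GRCm38 (GENCODE M21) the genes lie at chr11:63128982-63159547 (Pmp22, plus strand), chr10:67535475-67542188 (Egr2, plus), chr11:95568818-95587735 (Ngfr, minus), chr10:128567523-128589652 (Erbb3, minus), chr15:79154908-79165240 (Sox10, minus) and chr4:99656299-99658622 (Foxd3, plus). The position of Mbp is not given here. All 7 genes are annotated as protein coding. RefSeq start windows (GRCm38.p6) were at hand for 4 of them, 11 windows in all. Both stretches below are the 250 bases before an annotated start, shown because they hold matches to the 5 motifs searched on both strands. A different CArG box, in the Egr2 window chr10:67537316-67537615, is not shown. In Egr2 (chr10:67537619-67537868, plus strand) the capitals mark a CArG box, the kind of site that serum response factor binds in immediate-early genes. In Foxd3 (chr4:99656049-99656298, plus strand) they mark TGACGTCA, the cyclic AMP response element.
Egr2: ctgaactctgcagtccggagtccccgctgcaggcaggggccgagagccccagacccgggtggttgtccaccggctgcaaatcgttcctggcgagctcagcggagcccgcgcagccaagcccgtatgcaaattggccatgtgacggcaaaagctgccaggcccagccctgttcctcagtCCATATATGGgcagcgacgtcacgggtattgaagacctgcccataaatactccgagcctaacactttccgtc
Foxd3: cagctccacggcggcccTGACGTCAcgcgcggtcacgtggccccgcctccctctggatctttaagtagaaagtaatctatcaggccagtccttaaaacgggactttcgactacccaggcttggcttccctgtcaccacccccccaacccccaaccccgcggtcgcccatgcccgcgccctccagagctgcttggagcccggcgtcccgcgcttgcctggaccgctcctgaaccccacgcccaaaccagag

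A CArG box occurs in 1.63% of the 32851 RefSeq start windows and in 4 of the 5 Egr2 windows, at position 179 of the one shown. The Egr2 windows that begin at 67537619, 67537620 and 67537680 overlap and hold the same site, so the 4 windows are not 4 separate sites. The letters TGACGTCA occur in 1.79% of them, and the match begins at position 18 of the Foxd3 window. The SOX-type letters ACAAAG and ACAATG (in 18.7% and 12.6% of windows) and the EGR-type letters GCGTGGGCG (0.612%) were in none of the 11 windows. The motifs were chosen after these sequences had been read, so the matches are a description of the letters and nothing more.

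Summed over all kept cells, the members did not move alike between the libraries. Ngfr and Mbp were at least 2-fold lower in the cocktail library, Pmp22 and Foxd3 were lower by less, and for Egr2, Erbb3 and Sox10 the counting interval included no difference. Of 17260 genes with at least 20 UMIs, 5.01% were at least 2-fold lower and 3.62% at least 2-fold higher, against 2 and 0 of the 7. The median log2 ratio of the 7 was -0.53, and that of all genes was -0.03.

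Ngfr had 61 UMIs (3.12 CPM) in cocktail and 297 UMIs (12.9 CPM) in vehicle cells, for a log2 ratio of -2.05 (-2.47 to -1.64). Mbp had 876 UMIs (44.9 CPM) in cocktail and 2097 UMIs (91.1 CPM) in vehicle cells, for a log2 ratio of -1.02 (-1.14 to -0.91). Both were lower in the cocktail library, Ngfr by the wider margin. Pmp22 had 1371 UMIs (70.2 CPM) in cocktail and 2334 UMIs (101 CPM) in vehicle cells, for a log2 ratio of -0.53 (-0.63 to -0.43). Foxd3 had 57 UMIs (2.92 CPM) in cocktail and 112 UMIs (4.87 CPM) in vehicle cells, for a log2 ratio of -0.74 (-1.22 to -0.26). One cocktail cell of 2346 UMIs in no gate held 23 of those Foxd3 UMIs, 40.4% of the library's, and with the top cell of each library dropped the ratio was -1.42. As a mean of per-cell levels the Foxd3 ratio was 0.14 and that of Mbp -0.82.

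Egr2 had 377 UMIs (19.3 CPM) in cocktail and 506 UMIs (22.0 CPM) in vehicle cells, for a log2 ratio of -0.19 (-0.38 to 0.01). Sox10 had 1199 UMIs (61.4 CPM) in cocktail and 1359 UMIs (59.0 CPM) in vehicle cells, for a log2 ratio of 0.06 (-0.06 to 0.17). The levels of these transcription factors differed by less than the counting interval could separate. Erbb3 had 506 UMIs (25.9 CPM) in cocktail and 645 UMIs (28.0 CPM) in vehicle cells, for a log2 ratio of -0.11 (-0.28 to 0.06). A single vehicle epithelial cell held 123 of those Erbb3 UMIs, 19.1% of the library's, where the next cell held 11, and with the top cell of each library dropped the ratio was 0.12 (-0.06 to 0.31).

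By cells rather than UMIs, and with each cell thinned to 2000 UMIs, 1016 cocktail and 1391 vehicle cells could be compared. A UMI was seen in 7.48% of cocktail and 13.7% of vehicle cells for Mbp, 5.41% and 10.7% for Pmp22, 0.984% and 3.09% for Ngfr, and 0.787% and 1.65% for Foxd3. The shares were closer for Egr2 (44 and 64 cells), Sox10 (11.5% and 12.7%) and Erbb3 (4.82% and 4.46%), the one gene seen in the larger share of cocktail cells. Without thinning all 7 shares were lower in the cocktail library, from 1.20% against 4.67% for Foxd3 to 29.2% against 32.7% for Sox10, in cells that were also shallower.

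The members fell into 3 kinds by the cells that supplied their UMIs. Pmp22, Ngfr and Foxd3 came mainly from the glia gate in both libraries, Erbb3 and Sox10 mainly from epithelial gates, and Mbp and Egr2 from several sources. The epithelial gates were cells with Gal and Cck, cells with Ceacam16 and related tectorial membrane genes, and the remaining cells with at least 2 Epcam UMIs. Together they held 720 cocktail and 732 vehicle cells outside the glia gate. Of 19531019 cocktail UMIs of all genes, the Gal and Cck, Ceacam16 and remaining epithelial gates held 4493323, 2022361 and 5103299, and the glia gate 422782. Of 23017362 vehicle UMIs they held 4145445, 1898333 and 5247316, and the glia gate 1510141. A large epithelial share of a gene's UMIs therefore does not by itself mean a high level in those cells.

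**Figure D1:**
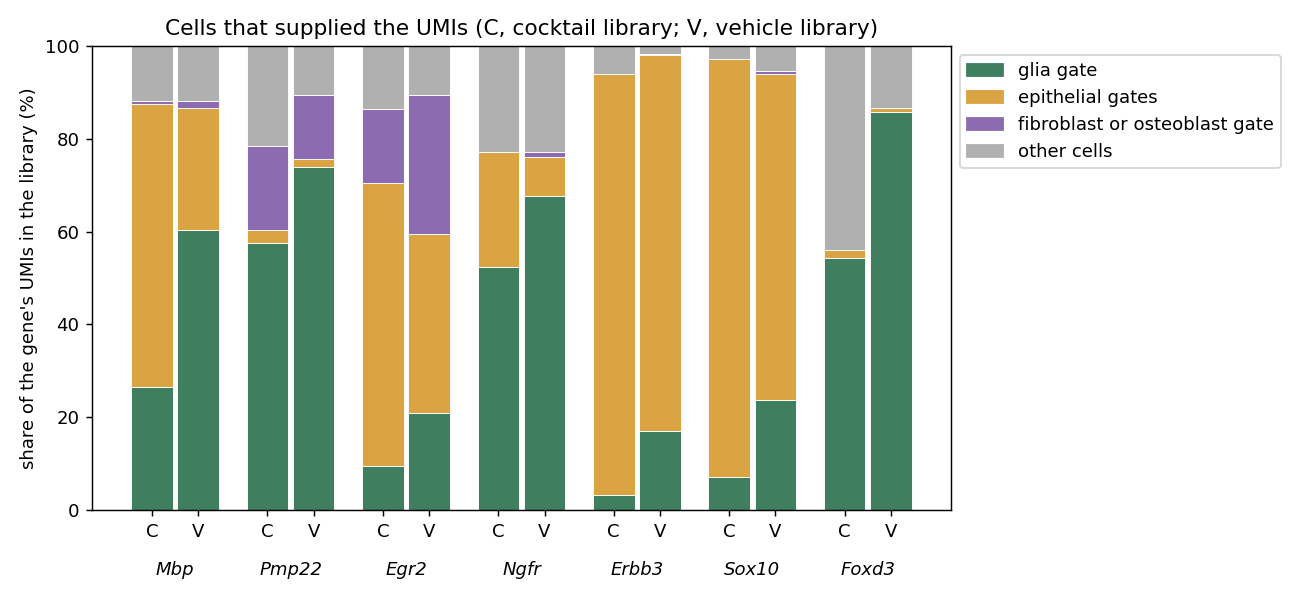
Stacked bars give, for each gene, the share (%) of its UMIs in the cocktail library (C) and the vehicle library (V) that came from the glia gate, the epithelial gates, the fibroblast or osteoblast gate, and all other cells. Each cell is counted once, in that order. The glia gate supplied 26.6% of Mbp in the cocktail bar and 60.3% in the vehicle bar, while the epithelial gates supplied 90.2% and 70.3% of Sox10.

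The glia gate supplied 57.6% (55.0 to 60.3) of Pmp22 in cocktail and 73.9% (72.1 to 75.7) in vehicle cells. Its share of Ngfr was 52.5% (39.3 to 65.4) in cocktail and 67.7% (62.0 to 73.0) in vehicle cells, and of Foxd3 54.4% (40.7 to 67.6) and 85.7% (77.8 to 91.6). For Mbp the main source differed between libraries. In the cocktail library the epithelial gates gave 61.0% (57.6 to 64.2) of Mbp and the glia gate 26.6% (23.7 to 29.7), while in the vehicle library they gave 26.4% (24.5 to 28.3) and 60.3% (58.2 to 62.4). The epithelial gates also gave 90.7% of Erbb3 in cocktail and 80.9% in vehicle cells, and 61.0% and 38.5% of Egr2. The fibroblast or osteoblast gate gave 18.1% of Pmp22 and 15.9% of Egr2 in the cocktail library, and 13.7% and 30.0% in the vehicle library.

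The share of glia-gate cells was 3.16% in cocktail and 10.2% in vehicle cells, beside the lower summed levels of Ngfr, Mbp, Pmp22 and Foxd3 given above. How many of all genes were lower by any margin with an interval leaving out 0 was not counted. With the glia-gate cells left out, the log2 ratio was -0.20 (-0.35 to -0.05) for Mbp, 0.10 (-0.06 to 0.27) for Pmp22, -0.06 (-0.27 to 0.15) for Egr2 and 0.04 (-0.14 to 0.22) for Erbb3. Sox10 was then higher in the cocktail library, at 0.27 (0.15 to 0.40), and Ngfr was still lower, at -1.56 (-2.21 to -0.94). The background in these cells was 5.00% of 17158 genes at least 2-fold lower and 3.50% higher, against 1 and 0 of the 7. With the interval also leaving out 0 the background was 4.62% and 3.21%, and the counts were again 1 and 0. Why the libraries held different shares of such cells was not tested, nor whether glia lie among the shallow cells in no gate (414 cocktail and 389 vehicle cells).

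Within gates, all 7 genes had their highest level in the glia gate when both libraries were pooled, among gates of at least 20 cells. In the cocktail library alone the exception was Erbb3, at 37.8 CPM (21.6 to 61.5) in the glia gate, 51.9 CPM (42.5 to 62.9) in the Ceacam16 gate and 41.1 CPM (35.8 to 47.1) in the remaining epithelial cells, 3 levels whose intervals overlap. The excess of the glia gate over all other cells, which for the myelin members is partly set by the choice of gate genes, ranged widely. It was 61.5-fold in cocktail and 40.3-fold in vehicle cells for Pmp22, 53.9-fold and 85.5-fold for Foxd3, 49.9-fold and 29.8-fold for Ngfr, and 16.4-fold and 21.7-fold for Mbp. It was much smaller for Egr2 (4.77-fold and 3.77-fold), Sox10 (3.45-fold and 4.40-fold) and Erbb3 (1.48-fold and 2.93-fold). A 4-fold excess was passed by 2.52% of 15501 genes in cocktail and 2.43% of 15958 genes in vehicle cells, against 5 of the 7 members in each.

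**Figure D2:**
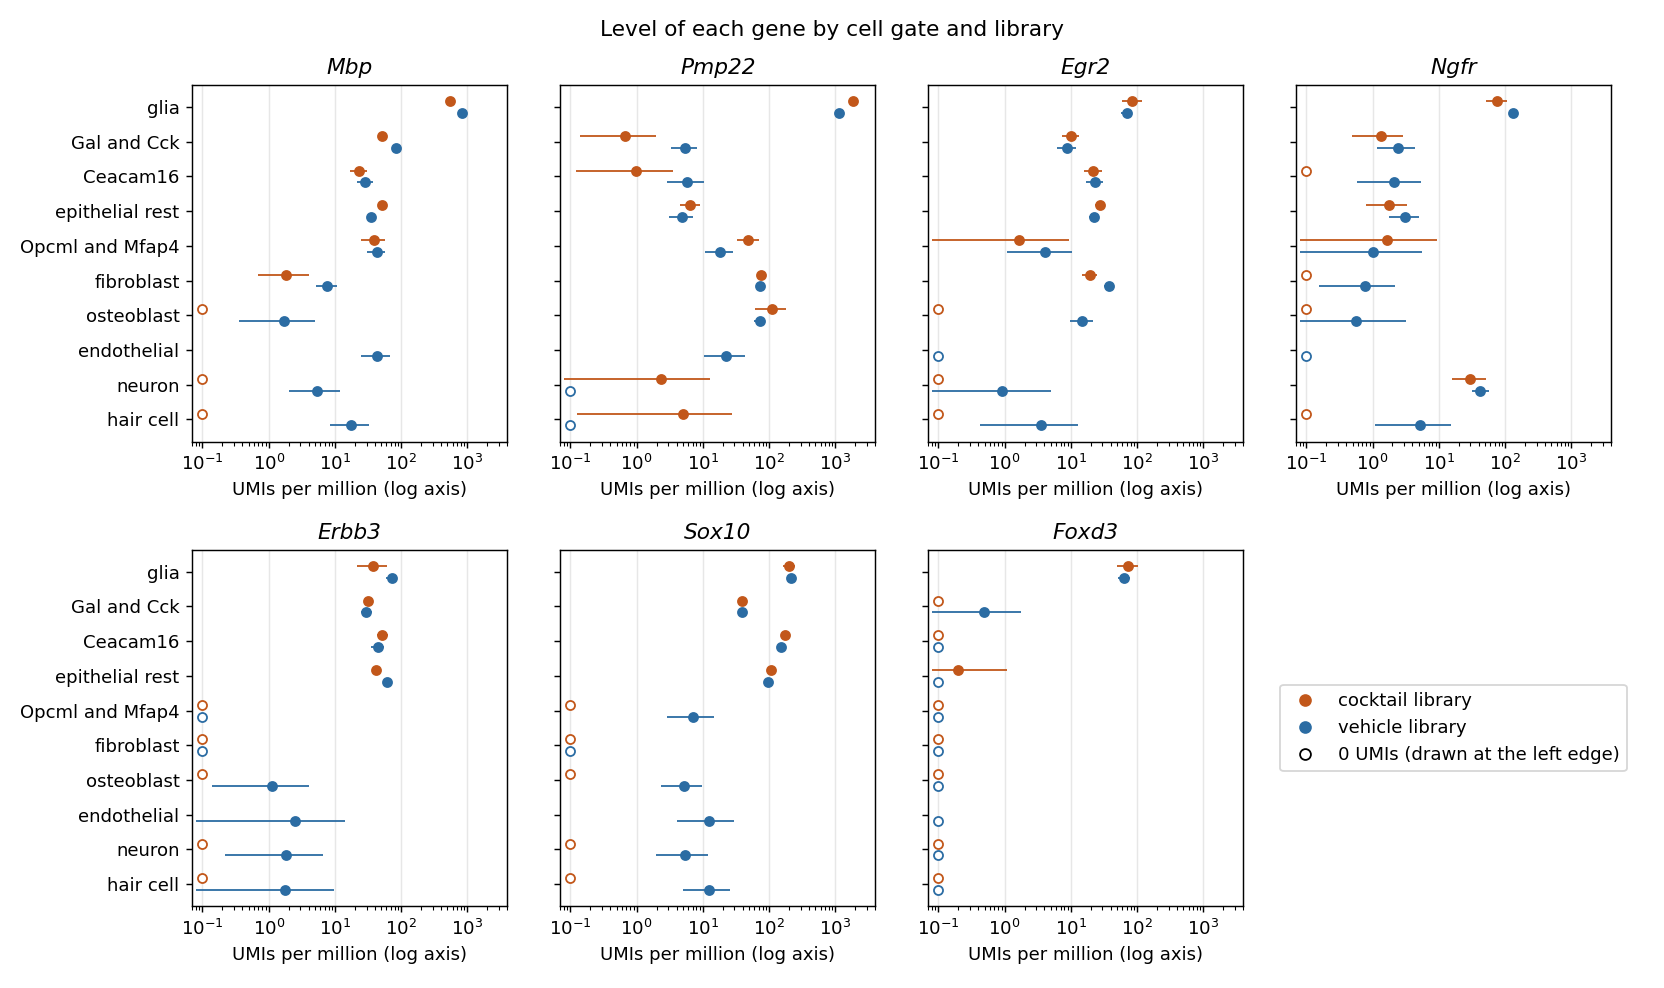
Each panel gives the level of 1 gene (CPM, log axis) by gate, with the cocktail library above the vehicle library and bars for the 95% Poisson interval; open points have 0 UMIs, and a missing point means that the library had no cell in the gate. The glia row is far to the right for Pmp22, Ngfr and Foxd3, while the Ceacam16 and remaining epithelial rows come close to it for Erbb3 and Sox10. The cocktail hair cell, neuron and osteoblast gates hold 9, 10 and 4 cells.

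Mbp in the Gal and Cck gate was at 51.0 CPM (44.6 to 58.0) in cocktail and 83.0 CPM (74.4 to 92.2) in vehicle cells, the next level after the glia gate. The remaining epithelial cells had 50.8 CPM (44.8 to 57.3) of Mbp in cocktail and 35.4 CPM (30.5 to 40.9) in vehicle cells, so these neighbouring gates were level in the cocktail and apart in the vehicle library. Fibroblast-gate cells were low, with 1.86 CPM (0.68 to 4.04) of Mbp in cocktail and 7.57 CPM (5.11 to 10.8) in vehicle cells. A single cell held 5 of the 6 cocktail UMIs there, and another held 19 of the 30 vehicle UMIs. The 3' counts do not separate classic Mbp from the Golli transcripts of the same locus, which share its 3' exons and are known from cells that make no myelin.

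Pmp22 had the opposite distribution outside glia. In the fibroblast gate it was at 76.1 CPM (66.9 to 86.2) in cocktail and 73.2 CPM (65.0 to 82.1) in vehicle cells. In the vehicle osteoblast gate it was at 72.1 CPM (60.1 to 85.7), but 41 of the 62 cells there were also in the fibroblast gate. The 21 osteoblast-gate cells in no other gate had 30 Pmp22 UMIs, at 56.4 CPM (38.1 to 80.5). In the Gal and Cck gate Pmp22 was at 0.668 CPM (0.138 to 1.95) in cocktail and 5.31 CPM (3.33 to 8.03) in vehicle cells. A single vehicle cell held 12 of the 22 vehicle UMIs. Without cells in more than 1 gate the levels were 0.710 CPM (0.146 to 2.07) in cocktail and 1.90 CPM (0.765 to 3.92) in vehicle cells. Connective tissue cells therefore carried Pmp22 with little Mbp, and the Gal and Cck cells Mbp with little Pmp22.

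Sox10 and Erbb3 were both present in the epithelial gates. In the Ceacam16 gate Sox10 reached 176 CPM (158 to 195) in cocktail and 153 CPM (136 to 171) in vehicle cells, beside 201 CPM (161 to 249) and 213 CPM (190 to 237) in the glia gate. Erbb3 was at 51.9 and 44.2 CPM in the Ceacam16 gate and 41.1 and 60.6 CPM in the remaining epithelial cells, with 123 of the 318 vehicle UMIs of the last gate in 1 cell, while Sox10 was at 108 and 97.8 CPM in the remaining cells. Fibroblast-gate cells had 0 Sox10 UMIs and 0 Erbb3 UMIs in both libraries, with limits of 0.928 CPM in cocktail and 0.757 CPM in vehicle cells, although they were the deeper cells (medians of 25721 and 20247 UMIs). After each cell was thinned to 2000 UMIs, Sox10 was seen in 39 of 119 cocktail and 29 of 107 vehicle Ceacam16-gate cells (32.8% and 27.1%), in 12 of 36 and 57 of 153 glia-gate cells (33.3% and 37.3%), and in 0 of 115 and 0 of 178 fibroblast-gate cells.

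The epithelial Sox10 cells differed from the glial ones in the 2 markers of immature glia. Among epithelial-gate cells with a Sox10 UMI, 8 of 338 cocktail cells (2.37%) and 11 of 353 vehicle cells (3.12%) also had Ngfr or Foxd3. Among glia-gate cells with a Sox10 UMI the counts were 15 of 28 (53.6%) and 63 of 111 (56.8%), at medians of 8392.5 and 8366 UMIs, against 20301 and 17908 UMIs in the epithelial cells. The shallower cells thus had the higher share. Ngfr was also present in the neuron gate, at 30.1 CPM (16.0 to 51.4) in 10 cocktail cells and 42.5 CPM (31.2 to 56.5) in 32 vehicle cells, of which 5 and 17 were in another gate too. Only 4 and 10 of these cells had an Ngfr UMI. A single cell held 6 of the 13 cocktail UMIs, and another held 21 of the 47 vehicle UMIs of the neuron gate. Foxd3 had 0 UMIs there, and outside the glia gate 1 cocktail and 1 vehicle UMI lay in epithelial-gate cells, 0 and 0 in fibroblast- or osteoblast-gate cells and 25 and 15 in other cells.

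Egr2 was present in glia, fibroblasts and epithelial cells. Its level was 85.2 CPM (59.6 to 118) in cocktail and 70.2 CPM (57.5 to 84.9) in vehicle cells of the glia gate, 19.5 CPM (15.0 to 24.9) and 37.4 CPM (31.6 to 43.9) in the fibroblast gate, and 27.8 CPM (23.4 to 32.8) and 22.5 CPM (18.6 to 26.9) in the remaining epithelial cells. Over 2407 cells thinned to 2000 UMIs, the 5 genes most like it included Pmp22 (Pearson r = 0.19), Fos (0.18) and Egr1 (0.18). Fos and Egr1 are immediate-early genes. In the glia gate Egr2 had r = 0.16 with Fos and 0.22 with Egr1 (189 cells), and outside it 0.16 and 0.20 (2218 cells). These are weak values from sparse counts and describe the cells of 2 libraries that share their preparation.

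Among the 5 nearest genes of the other members over the same 2407 cells, Pmp22 had Cldn19 (r = 0.51), Egfl8 and Gatm (both 0.50). Mbp had Pmp22 (0.47), Gatm (0.41) and Aatk (0.38). Ngfr had Gldn (0.35), Btc, Gfra1 (both 0.31) and Plekho1 (0.31), and Foxd3 had Art3 (0.24), Arhgap24 (0.23) and Dhh (0.22), the Schwann cell hedgehog ligand. Erbb3 reached no more than 0.15 (Lpcat2, Gldn, Cpeb3) and Sox10 no more than 0.23 (Cryab, Gfra1, Itgb8).

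Free RNA from 1 source would add the glial transcripts to other cells in 1 ratio. The level in a gate as a percentage of the glia-gate level differed widely between the members, so no single ratio holds for all of them, and how much free RNA adds to each was not tested. In the Gal and Cck gate Mbp was at 6.67% of its glia level in cocktail and 9.42% in vehicle cells, and Pmp22 at 0.0262% and 0.159%. In the fibroblast gate the order was turned round, with Mbp at 0.249% and 1.19% and Pmp22 at 2.82% and 5.94%.

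**Figure D3:**
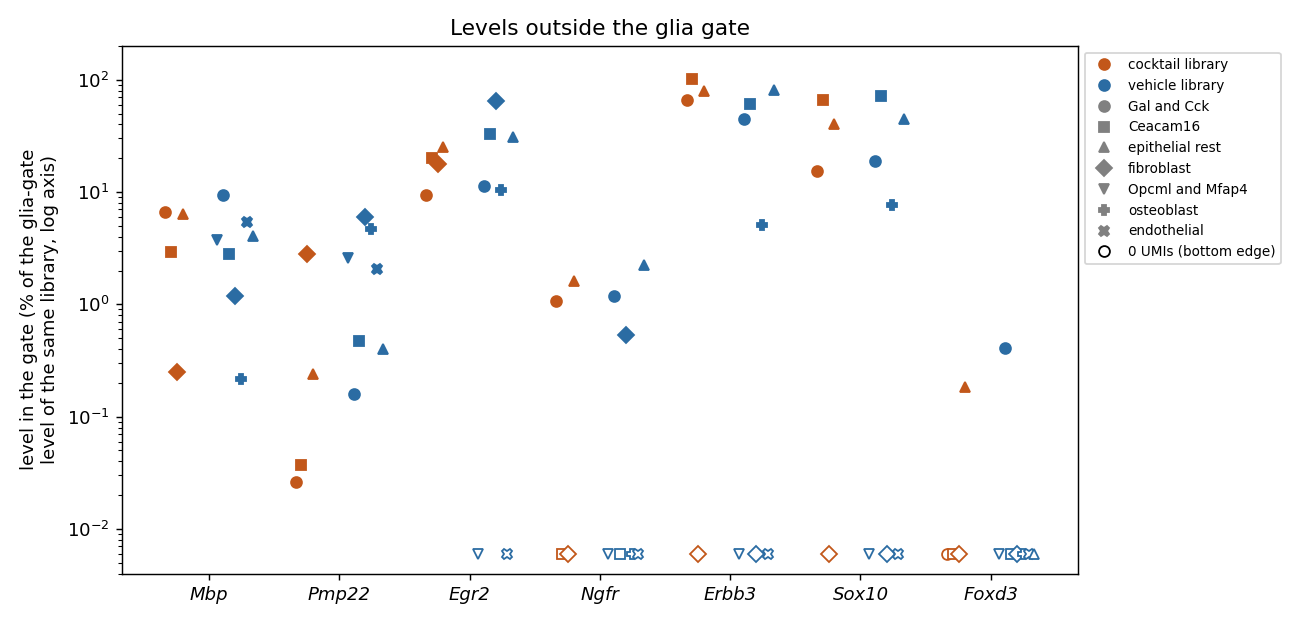
Points give the level of each gene in a gate outside the glia gate, as a percentage (log axis) of its level in the glia gate of the same library, for cells in no more than 1 gate; open points have 0 UMIs. Foxd3 has 0 UMIs in 9 of the 11 combinations, while Mbp reaches 9.42%, Egr2 64.3%, Sox10 71.7% and Erbb3 102%.

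Over 11 combinations of another gate and a library with at least 20 cells in 1 gate, Mbp was at a median of 3.74% of the glia level (0.217% to 9.42%), Egr2 at 17.9% (0 to 64.3%), Sox10 at 15.4% (0 to 71.7%) and Erbb3 between 0 and 102%. For Pmp22 the median was 0.476% and the highest 5.94%, in the vehicle fibroblast gate. Ngfr had 0 UMIs in 6 of the 11 combinations and at most 2.22%, and Foxd3 had 0 UMIs in 9 and at most 0.408%.

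Cells with both Opcml and Mfap4, a neural adhesion gene and a microfibril gene, numbered 23 among cocktail and 42 among vehicle cells. Mbp and Pmp22 were present in them and the other members were at or near 0. Mbp had 23 UMIs in 10 cocktail cells (38.4 CPM, 24.3 to 57.6) and 42 UMIs in 20 vehicle cells (42.6 CPM, 30.7 to 57.6). Pmp22 had 29 UMIs in 8 cocktail cells (48.4 CPM, 32.4 to 69.5) and 18 UMIs in 6 vehicle cells (18.3 CPM, 10.8 to 28.9).

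In the same cells Egr2 had 1 cocktail and 4 vehicle UMIs, Ngfr 1 and 1, Erbb3 0 and 0, and Foxd3 0 and 0. A count of 0 allowed 5.01 CPM in cocktail and 3.04 CPM in vehicle cells of the gate. Sox10 had 0 UMIs in the cocktail and 7 in the vehicle cells, all in 1 cell. These cells were deep (medians of 26933 and 21912.5 UMIs), and 4 cocktail and 15 vehicle cells were also in the Gal and Cck gate. Without those, 19 cocktail and 27 vehicle cells remained, with Mbp at 39.1 and 31.5 CPM, Pmp22 at 63.0 and 29.9 CPM, and 0 UMIs of Ngfr, Erbb3, Sox10 and Foxd3 in both, and 1 and 0 UMIs of Egr2. Thinned to 2000 UMIs, Mbp was seen in 3 of 23 cocktail cells (13.0%) and 2 of 42 vehicle cells (4.76%). The same share was 75.0% and 69.3% of glia-gate cells, 5.04% and 7.48% of Ceacam16-gate cells, and 0.870% and 0.562% of fibroblast-gate cells, which were as deep.

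Inside the glia gate, most cells with a myelin member also held a UMI of one of the other 4. At 2000 UMIs per cell, the share was 47.2% (30.4 to 64.5, 17 of 36) in cocktail glia and 51.0% (42.8 to 59.1, 78 of 153) in vehicle glia for cells with at least 1 UMI of both Mbp, Pmp22 or Egr2 and Ngfr, Erbb3, Sox10 or Foxd3. Of the second set Sox10, a gene of the whole lineage, was seen most often, in 12 cocktail and 57 vehicle cells, against 6 and 31 for Ngfr, 7 and 20 for Erbb3, and 5 and 20 for Foxd3. Myelin members alone were seen in 13 cocktail cells (36.1%) and 53 vehicle cells (34.6%), and the other 4 alone in 2 (5.56%) and 10 (6.54%). How far the myelin genes of the gate set these shares was not tested. The intervals of the libraries overlapped for each of the 4 classes. At 5000 UMIs the share with both was 65.5% (45.7 to 82.1) of 29 in cocktail and 79.8% (71.7 to 86.5) of 124 in vehicle glia, so the share depends on depth.

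**Figure D4:**
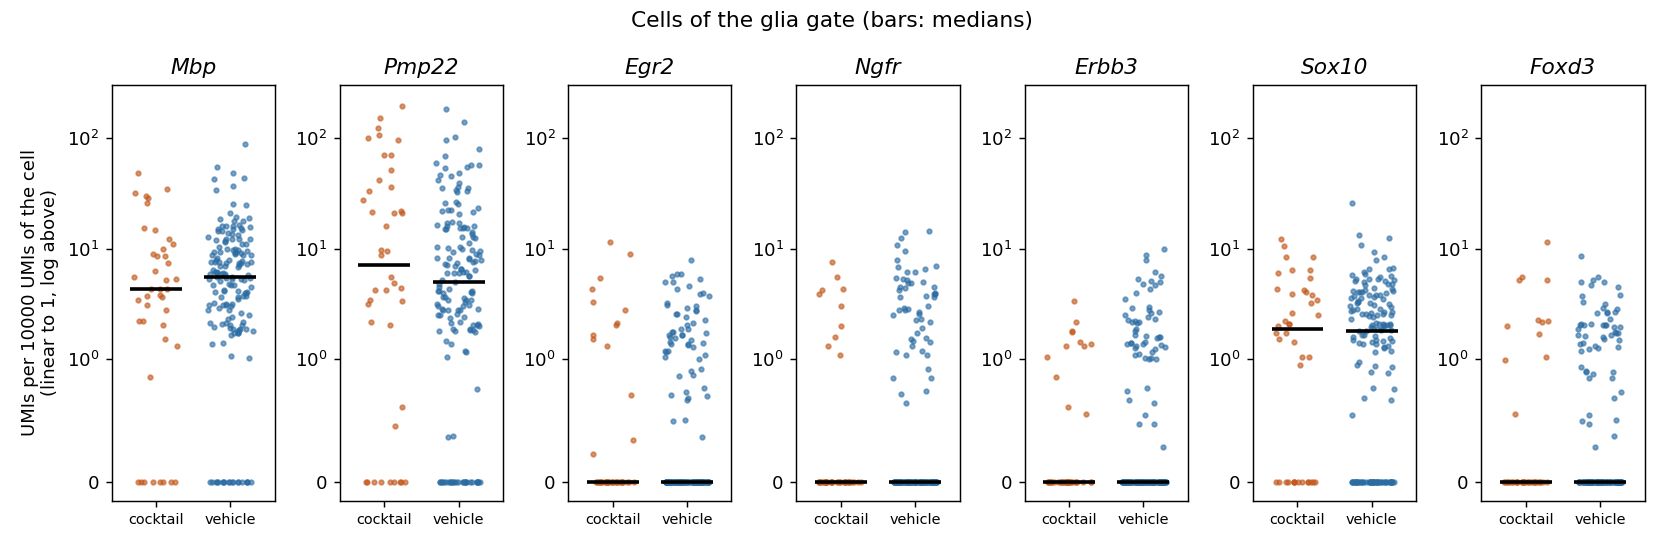
Points are the cells of the glia gate, 42 cocktail and 161 vehicle cells, with each gene's UMIs per 10000 UMIs of the cell (axis linear to 1, logarithmic above) and a bar at the median. The medians of Mbp are 4.30 and 5.56, those of Pmp22 are 7.17 and 4.95, those of Sox10 are 1.86 and 1.82, and the other medians are 0.

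Mbp ranged from 0 to 48.2 UMIs per 10000 over the cocktail cells (median 4.30) and from 0 to 87.0 over the vehicle cells (median 5.56). Pmp22 ranged from 0 to 193 over the cocktail cells (median 7.17) and from 0 to 182 over the vehicle cells (median 4.95). Both genes spanned wide ranges, and the libraries overlapped almost fully. At least 1 UMI of 2 or more of the 7 genes was seen in 29 of 36 cocktail cells (80.6%) and 113 of 153 vehicle cells (73.9%) at 2000 UMIs, against 27 of 607 (4.45%) and 25 of 667 (3.75%) epithelial-gate cells and 1 of 114 and 2 of 199 fibroblast- or osteoblast-gate cells.

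Across the 189 thinned glia-gate cells of both libraries the ranges of the correlation within and between the 2 sets of members overlapped. Mbp and Pmp22 had r = 0.36 with each other, and the 3 pairs of myelin members a median of 0.18 (-0.03 to 0.36). The 6 pairs among Ngfr, Erbb3, Sox10 and Foxd3 had a median r of 0.15 (0.05 to 0.20). The 12 pairs of a myelin member with one of these 4 had a median of -0.004 (-0.12 to 0.12), with 7 below 0. Most of these values are near 0 and come from sparse counts, so they do not show that the groups are unrelated. They also differed between the libraries, with r for Mbp and Pmp22 at 0.62 over 36 cocktail and 0.30 over 153 vehicle cells, and r for Pmp22 and Foxd3 at -0.41 and 0.12, the last pair at 0.01 and 0.04 with 5000 UMIs per cell.

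**Figure D5:**
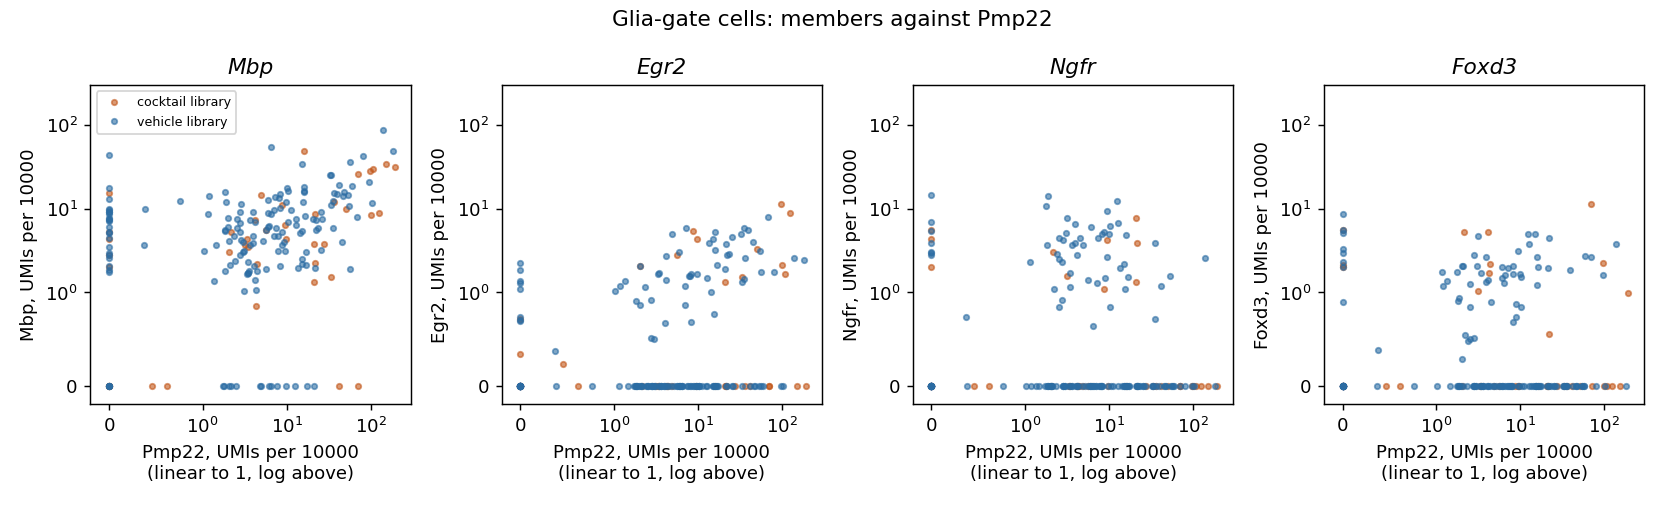
Each point is a glia-gate cell, with Pmp22 on the horizontal and Mbp, Egr2, Ngfr or Foxd3 on the vertical axis, both in UMIs per 10000 UMIs (linear to 1, logarithmic above). Mbp climbs loosely with Pmp22 (r = 0.36 in thinned cells), while r over both libraries is -0.02 for Ngfr and -0.002 for Foxd3, the last at -0.41 in cocktail and 0.12 in vehicle cells.

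The comparison of the libraries within the glia gate turned on a few cells. The 5 cocktail cells also in another gate (2 fibroblast, 1 Gal and Cck, 1 Opcml and Mfap4, 1 melanocyte) held 31.2% of the gate's UMIs, and the 5 such vehicle cells held 5.51%. With all cells in, Pmp22 was at 1869 CPM in cocktail and 1142 CPM in vehicle cells of the gate, for a log2 ratio of 0.71 (0.59 to 0.83). Without the cells in more than 1 gate it was at 2705 and 1198 CPM, a ratio of 1.18 (1.05 to 1.30). One cocktail cell held 195 Pmp22 UMIs, and with the top cell of each library dropped the ratio was 0.46 (0.32 to 0.60). The summed level of Pmp22 was higher in cocktail glia-gate cells under each of these settings, the reverse of its whole-library difference. At 2000 UMIs per cell, however, Pmp22 was seen in 21 of 36 cocktail (58.3%) and 92 of 153 vehicle glia-gate cells (60.1%).

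Mbp in the glia gate was at 551 CPM in cocktail and 838 CPM in vehicle cells, for a log2 ratio of -0.60 (-0.81 to -0.40), and at -0.13 (-0.34 to 0.07) without the cells in more than 1 gate. Ngfr was at 75.7 and 133 CPM, a ratio of -0.81 (-1.40 to -0.27), and at -0.32 (-0.91 to 0.22) without those cells. Erbb3 was at 37.8 and 72.8 CPM, a ratio of -0.94 (-1.80 to -0.18), and at -0.53 (-1.41 to 0.26) without them. Without those cells the intervals of these 3 genes included 0. Egr2 had a ratio of 0.28 (-0.31 to 0.84), Sox10 -0.08 (-0.44 to 0.27) and Foxd3 0.21 (-0.43 to 0.80), and without those cells 0.61 (-0.01 to 1.19), 0.29 (-0.08 to 0.66) and 0.68 (0.04 to 1.28). A single cocktail cell held 12 of the 31 Foxd3 UMIs of the gate. With only the top cell of each library dropped the Foxd3 ratio was -0.36 (-1.15 to 0.37). Of 8924 genes with at least 20 UMIs in the gate, 8.25% were at least 2-fold lower and 4.81% higher in the cocktail library, against 0 and 0 of the 7 members. Without the cells in more than 1 gate these shares were 13.1% and 2.41% of 8451 genes, against 0 members lower and 1 (Pmp22) higher.

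Other genes of the pathway were counted as changed at 2-fold or more with an interval leaving out 0, which 4.59% of all genes met as lower and 3.34% as higher over the whole libraries. Of 13 further myelin genes that no gate uses 4 were lower in the cocktail library and 0 higher, with a median log2 ratio of -0.76. These were Pllp (-1.58, -1.95 to -1.21), the claudin Cldn19 (-1.84, -2.52 to -1.22), Drp2 (-1.13) and Ugt8a (-1.02), the last pair named because the count is small. The tetraspanin gene Cd9 was at 501 CPM in cocktail and 512 CPM in vehicle cells, a ratio of -0.03 (-0.07 to 0.01).

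Of 14 immature or repair genes 3 were lower over the whole libraries and 0 higher. They were Sox2 (-1.10, -1.32 to -0.89), Olig1 (-1.89, -2.98 to -0.92) and Shh (-4.52, -9.87 to -1.92), which Schwann cells switch on after nerve injury and which had 1 UMI in cocktail and 27 in vehicle cells. Of the Sox2 UMIs, the glia gate held 69 of 255 in cocktail and 233 of 646 in vehicle cells. In that gate the Sox2 ratio was 0.08 (-0.33 to 0.47), and 0.55 (0.14 to 0.94) without cells in more than 1 gate. Jun, the factor that directs the repair state, was at 569 CPM in cocktail and 515 CPM in vehicle cells, at 0.14 (0.11 to 0.18). Of 6 glial transcription factors with enough UMIs 3 were lower, namely Pou3f1 (-1.13), Pou3f2 (-3.16, -4.11 to -2.34) and Tfap2a (-2.54, -3.40 to -1.78), a gene of early Schwann cells. Of the neuregulin and ErbB list Nrg3 was lower (-1.47, -1.83 to -1.12), 1 of 6, and of the neurotrophin list 0 of 6 were lower or higher. The oligodendrocyte genes Mobp (1.39, 0.55 to 2.28) and Opalin (1.41, 0.13 to 2.82) were higher, on 40 and 18 cocktail against 18 and 8 vehicle UMIs. Of 4 satellite glia genes and 3 melanocyte genes with enough UMIs, 0 were lower or higher.

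Within the glia gate the median of the myelin genes had the other sign, at 0.26, and 0.72 without the cells in more than 1 gate. Of these 13 genes 1 was higher (the fatty acid hydroxylase Fa2h, 2.36, 1.38 to 3.38) and 0 lower, and without the cells in more than 1 gate 6 were higher and 0 lower, beside backgrounds of 4.03% and 1.57% of genes higher and 4.76% and 6.69% lower. Among them were Fa2h (2.82, 1.83 to 3.84) and Mal, at 705 CPM in cocktail and 296 CPM in vehicle cells (1.25). Of 9 immature or repair genes with enough UMIs in the gate 2 were lower with all cells (Shh and Olig1) and 2 without the doubtful ones (Shh and the cadherin Cdh2), and 0 were higher. Cdh2 was at 0.68 (0.02 to 1.31) with all cells and -2.56 (-5.64 to -0.65) without the doubtful ones, which left 2 of its 31 cocktail UMIs, and Olig1 at -2.02 (-5.13 to -0.04) and -1.51 (-4.63 to 0.47). Shh had 0 cocktail and 25 vehicle UMIs in the gate, where a count of 0 allows 7.10 CPM in the cocktail library and the vehicle level was 16.6 CPM. Of 6 glial transcription factors 1 was higher and 2 lower with all cells, and of 5 without the doubtful ones 1 was higher and 1 lower. Nab2, a co-repressor of EGR factors, was higher in both (1.46, 0.11 to 2.76, and 1.59, 0.12 to 2.97), and Tfap2a was at -1.24 (-2.29 to -0.34) and then -0.89, with an interval that included 0. Pou3f2 was lower with all cells, at 14.2 CPM in cocktail and 56.9 CPM in vehicle cells, and without the doubtful cells, at 20.6 and 60.3 CPM (-1.55, -3.03 to -0.37). Pou3f1, lower over the whole libraries, was at 0.19 (-0.08 to 0.45) in the gate and at 0.63 (0.35 to 0.90) without the doubtful cells. Fabp7, a gate gene, was higher with all cells (1.59) and lower without those in more than 1 gate (-2.47, -4.12 to -1.21). Apoe was lower in both, at -1.49 (-1.89 to -1.12) and -4.40 (-5.85 to -3.27), the last on 6 cocktail and 621 vehicle UMIs. Over the whole libraries Apoe had the other sign, at 0.82 (0.77 to 0.86). Jun was at 660 CPM in cocktail and 794 CPM in vehicle cells of the gate, at -0.27 (-0.46 to -0.08), and Zeb2 at 478 and 454 CPM, at 0.07 (-0.16 to 0.30). Without the doubtful cells Jun was at -0.01 (-0.23 to 0.19) and Zeb2 at 0.37 (0.13 to 0.61). The summed level of the 8 melanocyte genes in the glia gate was 123 CPM in cocktail and 115 CPM in vehicle cells, with Mlana and Tyrp1 at 0, and that of the 6 oligodendrocyte genes was 11.8 and 1.32 CPM. The oligodendrocyte sums rest on 5 cocktail UMIs of Mobp, and on 1 vehicle UMI each of Mobp and Opalin.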

How the data were processed

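The 2 libraries were made with the 10x Genomics 3' kit (v3.1, per the labels' protocols), and the authors deposited raw UMI counts per gene and barcode, which Cell Ranger 5.0.0 wrote, per the file headers. Cell Ranger 5.0, STAR and Seurat 3.2.2 are tools listed in the submitters' processing notes, with mm10 and GRCm38 as builds and no roles given. The counts were used as deposited. Free RNA was not subtracted, no doublet caller was run, and cells in more than 1 gate (19 cocktail, 83 vehicle) were counted and left out as an alternative.

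UMIs were summed per library or gate. Each level has an exact Poisson interval, each share a Clopper-Pearson interval and each log2 ratio (cocktail over vehicle) an exact conditional interval, all at 95%. Shares were compared after drawing 2000 UMIs per cell (alternative 5000), which left out 313 cocktail and 193 vehicle cells. Correlations used log(1 + UMIs per 10000) in these thinned cells. The scripts ran in Python 3.11.15 with numpy 2.4.6 and scipy 1.17.1. The ratio step was tested on simulated counts and the thinning on a part of the real cells, and the other steps had no such test. PCR and pooling are not covered by the intervals.

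The gates are sets of marker genes: besides the glia gate, at least 3 genes of a list (2 for the Ceacam16 gate) together at 5 or more per 10000 UMIs, Gal and Cck together at 50 or more, or 1 UMI each of Opcml and Mfap4. Some genes of the glia gate are not reported here, and counts over all lists include them. The gates were not checked against reference cells. In each list the 3 genes with the most UMIs in the glia gate could be named, with up to 3 changed genes per direction, and for each member the 5 genes most like it. The members, gates and lists were chosen with earlier results of these data known. The sources of UMIs, the counts of members per cell, the Sox10 split, the Egr2 relations outside and inside the glia gate and the values without Gal and Cck cells were chosen after values were seen.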

Additional observations from a re-analysis of the deposited data

How the results depend on the processing

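No paired analysis was possible because each group is a single library, and no library could be left out for the same reason. The summary value standing for each comparison was chosen after values were seen. The number of members at least 2-fold lower in the cocktail library was 2, and it was 1 with the mean of per-cell levels, 1 with median ratio size factors (Mbp at -0.99), 1 without the glia-gate cells and 0 in those cells alone, the last pair added after the data were seen. It rose to 3 without the highest cell of each library, with Foxd3 at -1.42. Among ratios whose interval left out 0, the direction turned for Pmp22 without the glia-gate cells (0.10) and in them alone (0.71), and for Foxd3 with per-cell means (0.14), without the glia-gate cells (0.87) and in them alone (0.21). Among ratios whose interval included 0, the sign turned over the whole libraries for Erbb3 without the highest cell of each library (0.12) and without the glia-gate cells (0.04), for Sox10 with per-cell means (-0.25), without cells in more than 1 gate (-0.02) and in the glia gate alone (-0.08), and for Egr2 in the glia gate alone (0.28). Inside the glia gate it turned for Sox10 without cells in more than 1 gate (0.29) and with gate genes at 20 per 10000 UMIs (0.08), and without the highest cells for Egr2 (-0.05) and Foxd3 (-0.36). The number of members with more than 3 UMIs in Opcml and Mfap4 cells was 4, and it was 2 without cells in more than 1 gate, 2 with at least 3 UMIs of each gate gene, 2 without the highest cell of each library and 2 without Gal and Cck cells, the last added later. The share of glia-gate cells with a myelin member and one of the other 4 was 50.3%, and 77.1% at 5000 UMIs. The share of all genes at least 2-fold lower was 5.01%, and 11.9% with no minimum, 3.17% at 100 UMIs and 10.8% at 1.5-fold. In the glia gate 3 list genes were higher, and 8 without cells in more than 1 gate, which was added later. With the count of 3 members without the highest cells among them, 22 values for comparisons stayed within 1.5 times or within their interval. So did 71 values of single genes, while 22 single-gene values left the counting interval. Apart from the filters, gates and thinning named, the causes were not tested. Depth limits Foxd3 and Ngfr most, with 57 and 61 cocktail UMIs.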
